A study of Mus musculus with 20 samples.

Results

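The miR-7 family is described here through all 5 of its mature strands in the deposited tables, of 1481 named features in all. The strands were chosen by name: the guides mmu-miR-7a-5p and mmu-miR-7b-5p and the passengers mmu-miR-7a-1-3p, mmu-miR-7a-2-3p and mmu-miR-7b-3p. Each was measured by small RNA sequencing in 20 libraries of primary mouse cortical neurons, taken at embryonic day 15 and grown in culture for 7 days. Neurons were wild type or knockout for ciRS-7 (also called Cdr1as), and the labels of both genotypes give the strain as C57BL/6N-Cdr1asem1Nikr. For the last 12 h, normoxic cultures had fresh medium with 25 mM glucose and 0.2 mM pyruvate at 5% CO2 and 37 °C. The others underwent oxygen-glucose deprivation (OGD), a dish model of ischaemia, in a chamber at 1% O2, 5% CO2 and 37 °C with neither glucose nor pyruvate added. The 4 groups (wild-type normoxia, wild-type OGD, knockout normoxia, knockout OGD) held 5 biological replicates each. The labels do not say whether embryos were pooled, and ciRS-7 itself is too long for these libraries, so the genotype labels could not be checked against it.

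A microRNA gene is transcribed as a hairpin, which is cut to a duplex of a 5p and a 3p strand. One strand, the guide, is kept in an Argonaute protein and pairs with target RNAs mainly through its seed, bases 2 to 8 from its 5′ end. The other, the passenger, is mostly degraded. miR-7 is a conserved microRNA of neurons and endocrine cells. Its best known partner is ciRS-7, a circular RNA of neurons with many miR-7 sites, which miR-671 can direct to be cut. The long noncoding RNA Cyrano promotes the degradation of miR-7.

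The mature strands are shown because every later comparison rests on telling them apart; the sequences are those of RefSeq (GRCm38.p6), with the seed in capitals.
miR-7a-5p: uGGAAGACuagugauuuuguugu
miR-7b-5p: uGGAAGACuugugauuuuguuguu
miR-7a-1-3p: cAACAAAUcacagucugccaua
miR-7a-2-3p: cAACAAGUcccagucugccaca
miR-7b-3p: cAACAAGUcacagccagccuca
The guides differ by 1 substitution over their shared length, A10U (miR-7a-5p first, counted from the 5′ end), and miR-7b-5p ends with 1 further base (24 against 23). They share the seed GGAAGAC, which no other mature name among the 1679 in the RefSeq table carries. Of the passengers, miR-7a-2-3p and miR-7b-3p share the seed AACAAGU, and miR-7a-1-3p has AACAAAU alone. Between the miR-7a passengers there are 3 substitutions (A7G, A10C and U21C, miR-7a-1-3p first), the first of them inside the seed. Because the guides are so alike, a read with a sequencing error or trimmed at its 3′ end could be given to either, and how the authors divided such reads is not given in the sources used here.

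The guide miR-7a-5p is made from 2 hairpins and miR-7b-5p from a single one, so the passengers are what separates the miR-7a genes. The hairpins are shown with both mature strands in capitals (RefSeq, GRCm38.p6).
Mir7-1: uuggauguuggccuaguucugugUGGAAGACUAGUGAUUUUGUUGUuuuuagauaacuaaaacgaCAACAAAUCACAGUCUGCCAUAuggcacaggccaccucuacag
Mir7-2: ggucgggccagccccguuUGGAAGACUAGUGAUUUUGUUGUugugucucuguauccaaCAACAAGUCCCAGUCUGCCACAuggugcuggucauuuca
Mir7b: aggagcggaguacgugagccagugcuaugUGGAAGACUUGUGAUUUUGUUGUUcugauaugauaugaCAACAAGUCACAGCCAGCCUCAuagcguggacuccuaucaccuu
Mir7-1 lies at chr13:58392779-58392886 on the minus strand, within an intron of Hnrnpk, which encodes an RNA-binding protein and is transcribed in the same direction. Mir7-2 lies at chr7:78888277-78888373 on the plus strand and overlaps no other annotated gene; the nearest protein-coding gene, Aen, is 7481 bases away. Mir7b lies at chr17:56242988-56243098 on the plus strand, also outside other genes, and Fem1a is the nearest coding gene at 13712 bases.

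The deleted RNA is tied to this family by its sequence. ciRS-7 is transcribed from the strand opposite the gene Cdr1 (its single GENCODE transcript, chrX:61184005-61185558, minus strand, GRCm38). The reverse complement of the guides' seed, GTCTTCC, occurs 79 times in the 1554 bases opposite Cdr1, with no 2 matches overlapping, and 0 times on the Cdr1 strand. Among 52759 GENCODE transcripts of at least that length, 19.7% had a match in the same length of opposite strand and 13.9% on their own strand, and the most in any transcript of another gene was 11 on the opposite strand. The first, a middle and the last match with room for the rest of the site are shown as examples on the plus strand, with the seed match in capitals.
chrX:61184013-61184035: ttccccaaaatccatGTCTTCCt
chrX:61184788-61184810: ttcccagaagtccaaGTCTTCCc
chrX:61185526-61185548: ttcccagaaacccatGTCTTCCt
Both guides carry the same seed, so these matches do not separate them. A match is a property of the letters only, and binding was not measured here.

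Recovered reads per library totalled 2492065 to 9117862 in wild-type normoxia, 1160582 to 4374002 in wild-type OGD, 5884616 to 12477032 in knockout normoxia and 1811589 to 3119212 in knockout OGD, so OGD libraries were shallower. Levels are given as CPM, a strand's reads scaled to a common library size (counts per 1e6 reads). On the first principal component (83% of the variance over 423 features), wild-type normoxic replicate 5 stood apart at -0.88, against -14.46 to -13.09 for the rest of its group, and the wild-type OGD and normoxic genotype differences of the miR-7 strands are also given without it. The 6 neuronal marker miRNAs summed to 292975 to 389897 CPM, most of it miR-9-5p, whose group means were 259214 to 274360 CPM. Markers of astrocytes and progenitors were not listed. Myeloid and erythroid markers summed to at most 5.1 CPM in any library, endothelial markers to 269 to 393 CPM, mural markers to 29.9 to 64.4 CPM and the endocrine marker miR-375-3p to 2.41 to 6.95 CPM. The 2 oligodendrocyte markers summed to 5.29 to 11.1 CPM in wild-type normoxia and 9.04 to 13.7 after OGD, and to 7.28 to 11.4 and 9.97 to 14 CPM in knockout; their part in the OGD results was not tested. miR-210-3p, known to rise in low oxygen, stood at 18.3 ± 6.28 CPM in normoxic and 108 ± 34.7 CPM in OGD wild-type libraries (SD, n = 5), a rise of 2.49 (log2; SE 0.26, limma adjusted p 1.0e-06), or of 2.38 without wild-type normoxic replicate 5. Its knockout levels were 26 ± 12.6 and 110 ± 46.3 CPM, a rise of 2.08 (SE 0.27, adjusted p 2.3e-05).

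Both guides were among the abundant miRNAs of these neurons, and their passengers were scarce. By mean level, miR-7b-5p ranked 14 to 17 of 1481 across the 4 groups and miR-7a-5p ranked 26 to 42. In wild-type normoxia, miR-7b-5p stood at 13150.8, 12949.2, 11069.1, 12363.0 and 10203.0 CPM in replicates 1 to 5. After OGD the wild-type values of miR-7b-5p were 11628.2, 10316.1, 10307.3, 11478.4 and 8949.8 CPM. In knockout normoxia miR-7b-5p stood at 8905.0, 11442.3, 8664.9, 10344.7 and 8210.9 CPM, and in knockout OGD at 12149.1, 10995.4, 8591.2, 8626.5 and 9186.9 CPM. All 4 groups overlapped for this guide, and the order of its means ran from wild-type normoxia (11947 ± 1268.8) through wild-type OGD (10536 ± 1083.7) and knockout OGD (9910 ± 1589.1) to knockout normoxia (9514 ± 1341.5; SD, n = 5), and the libraries of neighbours in that order overlapped.

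For miR-7a-5p the wild-type normoxic values were 3418.7, 4266.6, 3789.5, 4386.9 and 2979.5 CPM. They were 5396.7, 5963.6, 6095.7, 6928.6 and 4905.1 CPM in wild-type OGD. The knockout values of miR-7a-5p were 2066.3, 2703.9, 1772.7, 3281.5 and 2564.3 CPM in normoxia and 4700.3, 4343.9, 3661.5, 4548.5 and 5002.2 CPM after OGD. Within each genotype every OGD library lay above every normoxic library. In order, the group means of miR-7a-5p were 5858 ± 764 in wild-type OGD, 4451 ± 503 in knockout OGD, 3768 ± 586 in wild-type normoxia and 2478 ± 585 CPM in knockout normoxia (SD, n = 5), and neighbours in that order overlapped. Since a bulk library pools all cells, fewer neurons holding a strand and less of it per neuron cannot be told apart.

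**Figure D1:**
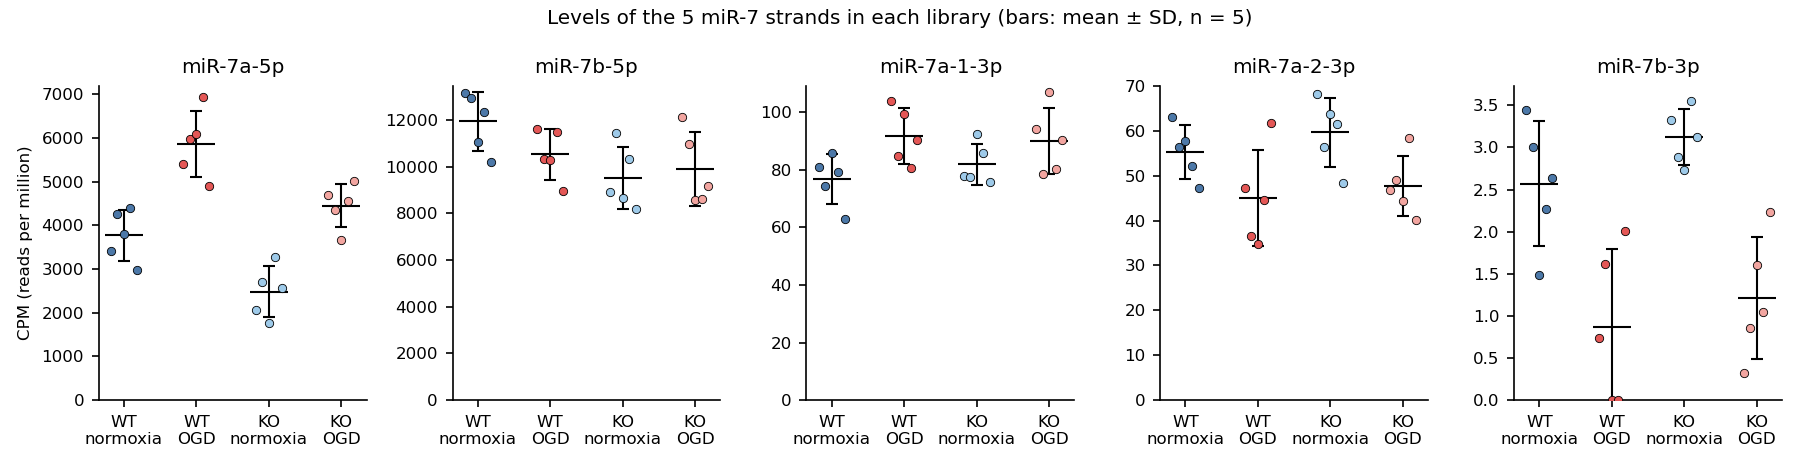
Level of each miR-7 strand in CPM (vertical axis, from 0) in the 20 libraries, by group; points are libraries and bars the mean ± SD of 5. Every OGD library of miR-7a-5p lies above every normoxic library of its genotype, while the groups of miR-7b-5p overlap.

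The passengers of miR-7a had between 41 and 937 reads in each library. miR-7a-1-3p, which comes from Mir7-1, stood at 76.7 ± 8.65 CPM in wild-type normoxia, 91.8 ± 9.68 in wild-type OGD, 81.9 ± 7.09 in knockout normoxia and 90.2 ± 11.6 in knockout OGD (SD, n = 5), with 63.1 CPM in its lowest library and 107 in its highest. miR-7a-2-3p, from Mir7-2, stood at 55.4 ± 6.03, 45 ± 10.7, 59.7 ± 7.62 and 47.7 ± 6.79 CPM in the same order of groups, between 34.8 and 68.3 CPM. In each group the mean of miR-7a-1-3p was above that of miR-7a-2-3p.

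miR-7b-3p was near the limit of counting. It had 29, 24, 12, 12 and 7 reads in wild-type normoxia and 40, 25, 16, 38 and 28 in knockout normoxia, against 3, 4, 0, 0 and 4 in wild-type OGD and 1, 2, 4, 3 and 4 in knockout OGD. A floor of 3 reads was worth 2.55 CPM in the library with fewest reads and 0.249 CPM in that with most, so most OGD values lie at or near the floor. Group means were 2.57 ± 0.746 and 0.87 ± 0.918 CPM in wild-type normoxia and OGD, and 3.12 ± 0.33 and 1.21 ± 0.728 CPM in knockout normoxia and OGD (SD, n = 5).

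As shares of all reads on the 5 strands, miR-7b-5p took 75.4% ± 2.3 in wild-type normoxia, 63.7% ± 2.3 in wild-type OGD, 78.5% ± 3.1 in knockout normoxia and 68.2% ± 3.5 in knockout OGD (SD, n = 5). miR-7a-5p took 23.7% ± 2.3, 35.4% ± 2.4, 20.3% ± 3.2 and 30.9% ± 3.4 in the same order. No passenger exceeded 0.874% in any library. The guides summed, which share 1 seed, came to 15715 ± 1673 and 16394 ± 1652 CPM in wild-type normoxia and OGD, and to 11991 ± 1750 and 14361 ± 1805 CPM in knockout normoxia and OGD. These sums were not tested.

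The 2 guides thus stood in different excess over their passengers. miR-7a-5p outnumbered its 2 passengers together by 28.6 ± 4.19 to 1 in wild-type normoxia, while miR-7b-5p outnumbered miR-7b-3p by 4978.4 ± 1531.3 to 1 (SD, n = 5). Over 261 miRNAs with both arms measured, the log2 ratio of the abundant over the scarce arm, from mean levels in wild-type normoxia, had a median of 4.64. miR-7a, at 4.83, ranked 126 and miR-7b, at 12.2, ranked 11. CPM takes no account of how readily each strand was ligated and captured, and that effect was not tested.

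The first comparison asked which strands changed in wild-type neurons after OGD. miR-7a-5p rose by 0.64 on the log2(CPM + 0.5) scale (SE 0.12, limma adjusted p 4.2e-04), miR-7b-3p fell by 1.44 (SE 0.46, adjusted p 0.0293), and the other 3 strands did not pass. miR-7b-5p differed by -0.18 (SE 0.10, adjusted p 0.21), miR-7a-1-3p by 0.26 (SE 0.13, adjusted p 0.174) and miR-7a-2-3p by -0.32 (SE 0.16, adjusted p 0.178). The count was therefore 1 strand higher and 1 lower of 5, beside 23.1% of all 1478 features called in either direction (18.7% higher, 4.4% lower). The median difference of the 5 strands was -0.18, that of all features 0.32. For miR-7a-5p the groups did not overlap, as for 16% of all features. Without wild-type normoxic replicate 5, miR-7a-5p rose by 0.56 (adjusted p 4.2e-04) and miR-7b-3p fell by 1.42 (adjusted p 0.0413). The other 3 strands again did not pass, with -0.24 for miR-7b-5p (adjusted p 0.0744), 0.19 for miR-7a-1-3p (0.284) and -0.38 for miR-7a-2-3p (0.102).

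In knockout neurons miR-7a-5p rose by 0.87 (SE 0.14, adjusted p 1.3e-04) and miR-7b-3p fell by 1.19 (SE 0.31, adjusted p 0.00969). The groups overlapped for neither strand, as for 19.1% of all features. miR-7b-5p differed by 0.06 (SE 0.11, adjusted p 0.762), miR-7a-1-3p by 0.13 (SE 0.11, adjusted p 0.429) and miR-7a-2-3p by -0.32 (SE 0.13, adjusted p 0.081). Of all 1479 features, 24.5% were called (18.8% higher, 5.75% lower), and their median difference was 0.24 against 0.06 for the 5 strands. miR-7a-2-3p was below its normoxic level in both genotypes and missed the threshold, and it passed in some alternatives only. It did not pass in either genotype with limma voom (adjusted p 0.117 in wild type and 0.0748 in knockout). Nor did it with a pseudocount of 2 CPM, thinning, all 20 libraries in one fit or total-read scaling. On the values as deposited, in which each group's extremes had been pulled in, it passed in both genotypes (adjusted p 0.0214 in wild type and 0.00289 in knockout). There miR-7a-1-3p was called higher in wild type (adjusted p 0.0231). In knockout miR-7a-2-3p also passed when features whose log2 CPM averaged under 3 were left out (adjusted p 0.0405). Of 10 wild-type fits without a library it passed in 1, without OGD replicate 5 (-0.44, adjusted p 0.0387). In knockout it passed in 2 of 10, without normoxic replicate 5 (-0.39, adjusted p 0.0396) or OGD replicate 4 (-0.40, adjusted p 0.0329).

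Which strands were called after OGD depended on the scaling. miR-7a-5p stayed above and miR-7b-3p below normoxia with centred libraries and with quantile normalization. miR-7a-1-3p changed sign with both, and miR-7b-5p changed sign in knockout with centred libraries. Centring each library on its median moved all OGD differences down by 0.56 (log2) in wild type and 0.51 in knockout. Relative to that shift miR-7a-5p differed by 0.08 in wild type (adjusted p 0.708) and 0.36 in knockout (adjusted p 0.0531), neither of them called. miR-7b-5p then fell by 0.74 (adjusted p 8.9e-05) and 0.45 (adjusted p 0.00996), and miR-7a-2-3p fell by 0.88 (adjusted p 2.9e-04) and 0.83 (adjusted p 2.4e-04). miR-7a-1-3p changed sign, to -0.30 (adjusted p 0.117) in wild type and -0.38 (adjusted p 0.0237) in knockout, and miR-7b-3p remained called (adjusted p 0.00311 and 1.5e-04). Quantile normalization kept the rise of miR-7a-5p, at 0.67 (adjusted p 1.6e-04) in wild type and 0.79 (adjusted p 6.9e-04) in knockout. It also called miR-7a-2-3p lower, at -0.92 (adjusted p 0.00105) and -0.87 (adjusted p 5.4e-04), and miR-7b-3p, at -1.94 (adjusted p 0.00341) and -1.71 (adjusted p 4.4e-04). miR-7b-5p, called after centring, differed by -0.03 (adjusted p 0.857) and 0.09 (adjusted p 0.612) after quantile normalization, and miR-7a-1-3p by -0.30 (adjusted p 0.14) and -0.33 (adjusted p 0.062).

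**Figure D2:**
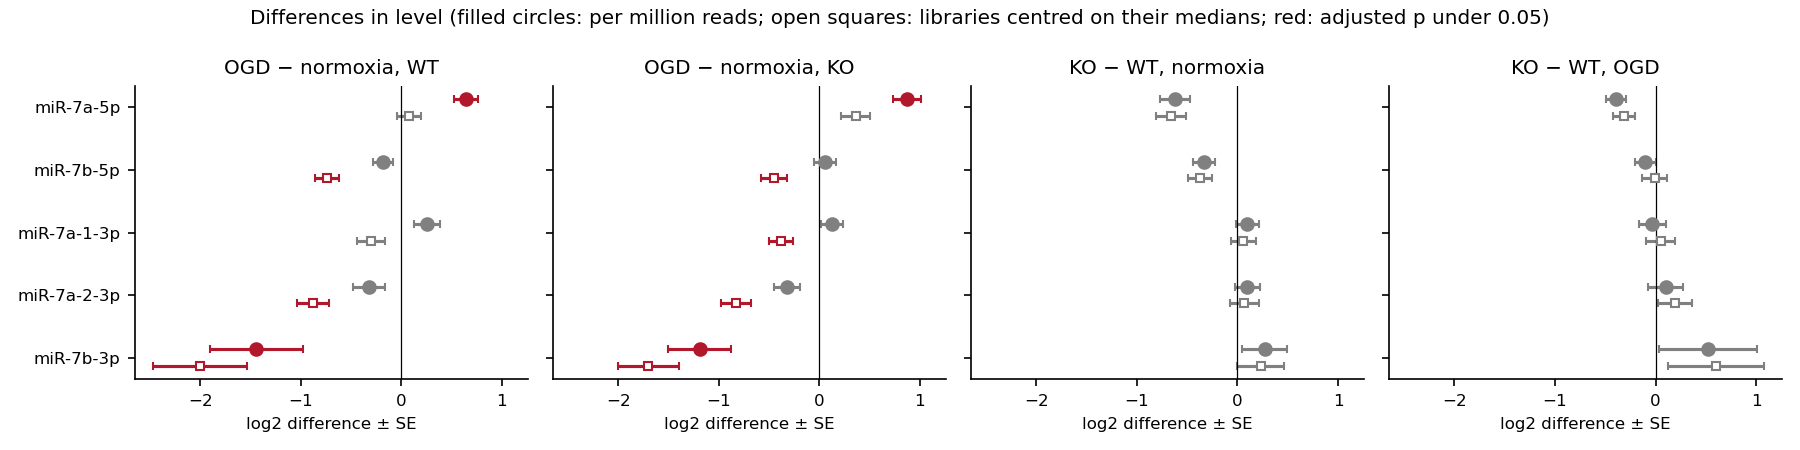
Log2 difference ± SE of each strand (horizontal axis) in the 4 comparisons, on CPM (filled circles) and with libraries centred on their medians (open squares); red marks an adjusted p under 0.05. Centring moves the OGD differences down, so that miR-7a-5p is called on CPM only, and hardly moves the differences between genotypes.

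The fall of miR-7b-3p rests on few reads. Pooled over libraries, it had 11 reads in wild-type OGD against 84 in normoxia, a CPM ratio of 0.38 (95% exact interval 0.183 to 0.716), and 14 against 147 in knockout, a ratio of 0.35 (0.187 to 0.606); these intervals cover counting error only. With all libraries thinned to 1160582 reads the difference was -0.96 in wild type (adjusted p 0.314) and -1.05 in knockout (adjusted p 0.221). With a pseudocount of 2 CPM in place of 0.5 the fall of miR-7b-3p was 0.71 in wild type (adjusted p 0.0313) and 0.70 in knockout (adjusted p 0.00856). On the values as deposited the wild-type call was lost (adjusted p 0.106). The wild-type call was lost when any 1 of 6 libraries was left out, namely normoxic replicates 1 (adjusted p 0.101), 2 (0.0675) or 4 (0.0633), or OGD replicates 1 (0.0632), 3 (0.102) or 4 (0.0853). Over all 10 such fits the wild-type difference of miR-7b-3p ran from -1.73 to -1.15. The knockout call held in all 10 of its fits, at -1.39 to -0.956.

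Ratios of strands within a library do not depend on the scaling. The ratio of miR-7b-5p to miR-7a-5p was 3.85, 3.04, 2.92, 2.82 and 3.42 in wild-type normoxia and 2.15, 1.73, 1.69, 1.66 and 1.82 after OGD. In knockout neurons it was 4.31, 4.23, 4.89, 3.15 and 3.2 in normoxia and 2.58, 2.53, 2.35, 1.9 and 1.84 after OGD. In both genotypes every OGD library lay below every normoxic one, so the pair moved towards miR-7a-5p. How often ratios of other miRNAs separate in this way was not counted. Of the 261 5p to 3p ratios, 26.4% did not overlap after OGD in wild type and 30.3% in knockout. The mean ratio went from 3.21 ± 0.424 to 1.81 ± 0.202 in wild type and from 3.96 ± 0.756 to 2.24 ± 0.352 in knockout (SD, n = 5). The mean log2 ratio fell by 0.82 and 0.81 (exact two-sided permutation p 0.00794 for each, the smallest that 5 against 5 libraries can give; 0.0317 after Benjamini-Hochberg adjustment over 8 ratio tests). Without wild-type normoxic replicate 5 the wild-type fall was 0.80 (adjusted p 0.0317 by the same exact test). Between genotypes the log2 ratio was 0.29 higher in knockout in normoxia (exact p 0.0794, adjusted 0.106) and 0.30 higher after OGD (exact p 0.0556, adjusted 0.0889), and neither passed. The normoxic difference was 0.32 without wild-type normoxic replicate 5 (adjusted exact p 0.148).

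The passengers give the same kind of within-library comparison for the 2 miR-7a genes. The ratio of miR-7a-1-3p to miR-7a-2-3p was 1.28, 1.32, 1.49, 1.52 and 1.34 in wild-type normoxia and 2.2, 2.32, 2.85, 1.81 and 1.46 after OGD. It was 1.14, 1.38, 1.45, 1.4 and 1.57 in knockout normoxia and 2.01, 1.61, 2.42, 1.38 and 2.25 after OGD. In each genotype 4 of 5 OGD libraries lay above all normoxic ones. The mean log2 ratio differed by 0.58 in wild type (exact two-sided permutation p 0.0238) and by 0.45 in knockout (exact p 0.0397), and after adjustment over the 8 tests neither passed (0.0635 and 0.0794). In each genotype 9 of 10 fits without a library did not pass either, and the fit without its lowest OGD library did. Without wild-type OGD replicate 5 the difference was 0.70 (adjusted exact p 0.0212), and without knockout OGD replicate 4 it was 0.57 (adjusted exact p 0.0212). In each genotype that was the only overlapping OGD library. Leaving it out separates the groups, so no conclusion is drawn from these 2 fits. Genotypes differed by -0.01 in normoxia (exact p 0.952) and -0.13 after OGD (exact p 0.563). The wild-type OGD difference was 0.57 (adjusted exact p 0.0794) and the normoxic genotype difference -0.02 (adjusted exact p 0.873) without wild-type normoxic replicate 5. These ratios say nothing of which hairpin gave the miR-7a-5p reads, since both make the same guide.

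The ratio of guide to passenger rose after OGD for miR-7a in both genotypes. In wild type miR-7a-5p over its summed passengers was 23.7, 32.6, 26.4, 33.4 and 27 in normoxia and 35.8, 49.2, 45.4, 55.4 and 32.3 after OGD. In knockout it was 14.1, 20.2, 11.3, 22.3 and 20.7 in normoxia and 33.3, 34.1, 24.2, 32.8 and 38.4 after OGD. Only the knockout groups did not overlap, as for 30.3% of the 261 pairs there. On the log2 scale the ratio rose by 0.59 in wild type (SE 0.18, limma adjusted p 0.0258) and by 0.91 in knockout (SE 0.21, adjusted p 0.00483). Such calls were common: 40.6% of the 261 pairs were called in wild type and 38.3% in knockout, with 20.3% and 19.9% higher and 20.3% and 18.4% lower.

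The wild-type rise of the miR-7a ratio was close to the threshold. Without wild-type normoxic replicate 5 it was 0.57 (adjusted p 0.0421). It did not pass without normoxic replicate 1 (adjusted p 0.0615) or 3 (0.0539), or without OGD replicate 2 (0.0631) or 4 (0.0574), after thinning (0.0787), with all arm pairs tested (0.0707), or against miR-7a-1-3p alone (0.38, adjusted p 0.106). Against miR-7a-2-3p alone it was 0.96 (adjusted p 0.00793). For miR-7b the difference was 1.26 in wild type (SE 0.50, adjusted p 0.0667) and 1.25 in knockout (SE 0.36, adjusted p 0.0159), so that it rose in knockout. The wild-type difference passed in 2 of 10 fits without a library, those without OGD replicate 2 (adjusted p 0.0458) or 5 (adjusted p 0.0189). These 2 libraries had the most miR-7b-3p reads of their group, 4 each. With 0 to 4 reads of miR-7b-3p in each OGD library, the differences of both genotypes are imprecise. With a pseudocount of 2 CPM the miR-7b difference was 0.53 in wild type (adjusted p 0.091) and 0.76 in knockout (adjusted p 0.0113). The wild-type difference was 1.18 (adjusted p 0.126) without normoxic replicate 5.

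**Figure D3:**
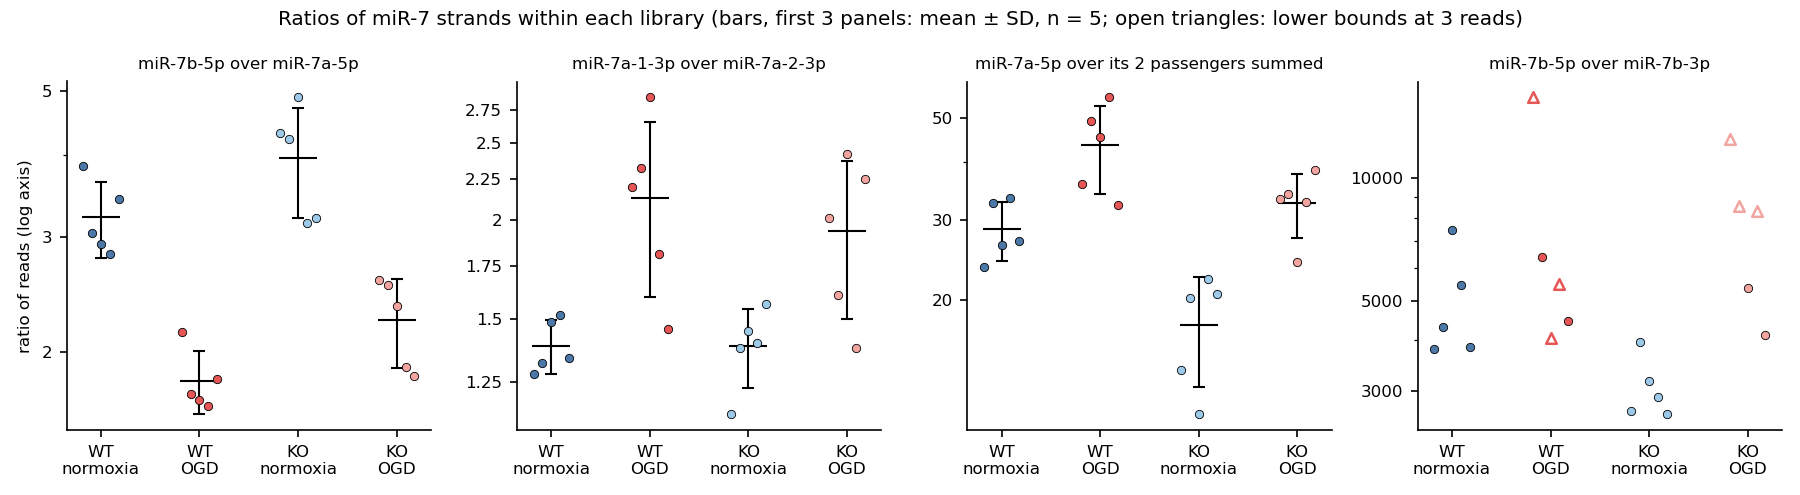
Ratios of reads between miR-7 strands within each library (log axes), by group; points are libraries and bars, in the first 3 panels, the mean ± SD of 5. The panel of miR-7b-5p over miR-7b-3p has no bars, and its open triangles are lower bounds where miR-7b-3p had at most 3 reads, set at 3. miR-7b-5p over miR-7a-5p is lower in every OGD library than in every normoxic library of its genotype, and miR-7a-5p over its passengers is lower in every knockout than in every wild-type normoxic library.

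The next comparison asked what loss of ciRS-7 did in normoxia. No strand passed, nor did any of the 1481 features (0% called by limma, 0 also with limma voom and with all 20 libraries in one fit; 47, or 3.17%, had an unadjusted p under 0.05). The guides had the lower values in knockout: miR-7a-5p stood at 2478 ± 585 against 3768 ± 586 CPM (log2 difference -0.62, SE 0.15, p 0.00129, adjusted p 0.838) and miR-7b-5p at 9514 ± 1341.5 against 11947 ± 1268.8 CPM (-0.33, SE 0.11, p 0.00788, adjusted p 0.984; SD, n = 5). By unadjusted p, miR-7a-5p ranked 1 and miR-7b-5p 10 of 1481. All but 1 knockout library of miR-7a-5p lay below all wild-type libraries; levels did not overlap for 0.54% of all features, none of them a miR-7 strand. For the passengers the differences were 0.10 (SE 0.11) for miR-7a-1-3p, 0.10 (SE 0.12) for miR-7a-2-3p and 0.27 (SE 0.22) for miR-7b-3p, none past the threshold (each at an adjusted p of 0.984). Without wild-type normoxic replicate 5, miR-7a-5p differed by -0.70 and miR-7b-5p by -0.39, both at an adjusted p of 0.557, and the passengers by 0.03, 0.05 and 0.29 in the same order as above. On the values as deposited, in which each group's extremes had been pulled in, 33 features were called and miR-7a-5p was among them (adjusted p 0.0115). Centring moved this comparison by 0.04 (log2), and quantile normalization gave -0.18 for miR-7b-5p (p 0.098, adjusted p 0.983).

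The guide to passenger ratios of the 2 miR-7 pairs had the 2 smallest p-values of the 261 pairs in normoxia. For miR-7a the guide to passenger ratio was 28.6 ± 4.19 in wild type and 17.7 ± 4.72 in knockout (SD, n = 5). Every knockout library, at 11.3 to 22.3, lay below every wild-type library, at 23.7 to 33.4, and miR-7a was the 1 pair of 261 without overlap (0.383%). The log2 difference was -0.73 (SE 0.20, p 0.00344, rank 1, limma adjusted p 0.779). For miR-7b the ratio was 3814.5, 4316.5, 7449.6, 5453.2 and 3858.3 in wild type and 2677.0, 3961.6, 3176.2, 2912.1 and 2635.6 in knockout, and the log2 difference was -0.61 (SE 0.18, p 0.00597, rank 2, adjusted p 0.779). All but 1 knockout library lay below the wild-type libraries. Neither pair passed the correction; 0% of pairs were called, and 6 (2.3%) had an unadjusted p under 0.05, against a median difference of -0.02 over all pairs. Against each passenger alone, the miR-7a difference was -0.72 (miR-7a-1-3p) and -0.73 (miR-7a-2-3p), each at an adjusted p of 0.523. Without wild-type normoxic replicate 5 the values were -0.74 for miR-7a and -0.68 for miR-7b, both at an adjusted p of 0.553.

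**Figure D4:**
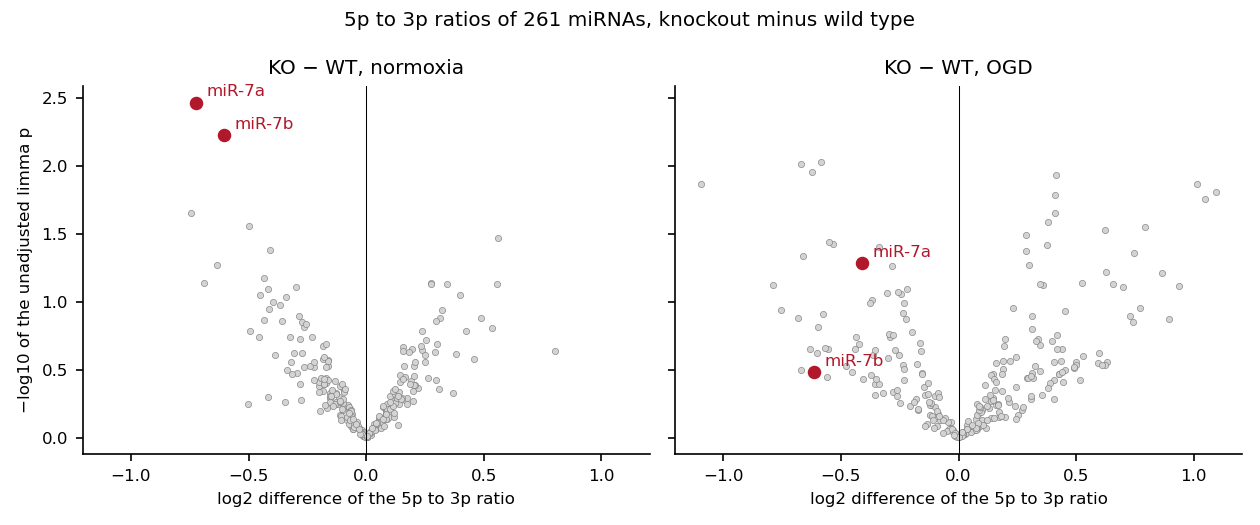
Difference of the log2 5p to 3p ratio between knockout and wild type (horizontal axis) against −log10 of the unadjusted limma p (vertical axis) for 261 arm pairs, in normoxia and after OGD, with miR-7a and miR-7b in red. In normoxia the 2 miR-7 pairs have the smallest p-values (0.00344 and 0.00597) and after OGD they lie among the others; no pair passed the adjusted threshold in either.

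The same genotype comparison was made after OGD. miR-7a-5p stood at 4451 ± 503 CPM in knockout against 5858 ± 764 CPM in wild type (SD, n = 5; log2 difference -0.39, SE 0.10, p 3.7e-04, limma adjusted p 0.272), and only knockout replicate 5, at 5002.2 CPM, reached into the wild-type range, which began at 4905.1 CPM (0.945% of features did not overlap). It had the smallest p of 1481 features and did not pass. Of 10 fits without a library, 1 passed, that without knockout OGD replicate 5 (-0.44, adjusted p 0.0142). Leaving out that library removes the only overlap, so no conclusion is drawn from that fit. In the other fits the adjusted p reached 0.702. miR-7a-5p also passed on the values as deposited, in which each group's extremes had been pulled in (adjusted p 0.00718). miR-7b-5p differed by -0.10 (SE 0.10, adjusted p 0.881), miR-7a-1-3p by -0.03 (SE 0.13), miR-7a-2-3p by 0.10 (SE 0.17) and miR-7b-3p by 0.52 (SE 0.49), none of them past the threshold. By limma 0% of features were called, and 108 (7.29%) had an unadjusted p under 0.05; limma voom called 0, the fit over all 20 libraries 4 and the values as deposited 72. Without knockout OGD replicate 5 the count was 22.

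The guide to passenger ratio of miR-7a after OGD was 32.5 ± 5.18 in knockout and 43.6 ± 9.52 in wild type (SD, n = 5), a log2 difference of -0.41 (SE 0.19, p 0.0524, limma adjusted p 0.597), and the groups overlapped, as all but 1.53% of pairs did. That of miR-7b was -0.62 (SE 0.60, p 0.328, adjusted p 0.765). Among all pairs, 0% were called and 21 (8.05%) had an unadjusted p under 0.05.

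Whether OGD acted differently in the 2 genotypes was tested over all 20 libraries. The interaction was 0.23 for miR-7a-5p (SE 0.19, p 0.238), 0.24 for miR-7b-5p (SE 0.15, p 0.134), -0.13 for miR-7a-1-3p (SE 0.17, p 0.454), 0.00 for miR-7a-2-3p (SE 0.21, p 0.998) and 0.25 for miR-7b-3p (SE 0.57, p 0.666). All had a limma adjusted p of at least 0.99, 0% of features were called, and 74 (5%) had an unadjusted p under 0.05. For the guide to passenger ratio it was 0.32 in miR-7a (SE 0.28, p 0.269) and -0.01 in miR-7b (SE 0.64, p 0.987), with 0% of pairs called and 9 (3.45%) at an unadjusted p under 0.05.

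miR-671 is the other miRNA of the ciRS-7 network, the one whose 5p strand directs the cutting of the circle. miR-671-3p stood at 26.3 ± 4.42 CPM in wild-type normoxia and 10.2 ± 1.76 after OGD, and at 28.5 ± 1.99 and 12.6 ± 2.46 CPM in knockout (SD, n = 5). It fell by 1.32 in wild type (log2; SE 0.19, limma adjusted p 3.1e-05; 1.37 without normoxic replicate 5) and by 1.17 in knockout (SE 0.15, adjusted p 1.8e-05). miR-671-5p stood at 6.91 ± 1.12, 8.05 ± 1.64, 7.25 ± 1.23 and 11 ± 2.71 CPM in wild-type normoxia, wild-type OGD, knockout normoxia and knockout OGD. It differed by 0.19 in wild type (SE 0.22, adjusted p 0.562) and rose by 0.56 in knockout (SE 0.19, adjusted p 0.0438). That call was lost in 8 of 10 fits without a library and with centred libraries or quantile normalization. It was also lost after thinning (0.45, adjusted p 0.389) and with each library scaled to its own total (0.55, adjusted p 0.07). The wild-type difference of miR-671-5p changed sign with centred libraries (-0.37), quantile normalization (-0.44) and thinning (-0.24), and passed in none of them. Between genotypes neither strand passed, with differences of 0.06 and 0.13 in normoxia and 0.43 and 0.28 after OGD for miR-671-5p and miR-671-3p.

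The features whose levels over the 20 libraries were most like each guide were not other miR-7 strands. Likeness was the root mean square difference of log2(CPM + 0.5), each feature centred on its own mean, over 423 features. For miR-7a-5p, whose own SD over libraries was 0.51, the nearest were miR-98-3p (0.34), miR-540-3p (0.34) and miR-361-5p (0.35), against a median of 0.52 over all features and 0.48 for miR-7b-5p. The mean of miR-361-5p was 289 and 461 CPM in wild-type normoxia and OGD, and 297 and 448 CPM in knockout. For miR-7b-5p, whose SD was 0.21, the nearest were let-7g-5p, let-7i-5p and miR-9-5p, each at 0.19 against a median of 0.36. These are abundant miRNAs that varied little here, with miR-9-5p at a mean of 259214 to 274360 CPM per group. The values share libraries and scaling and are a description only.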

How the data were processed

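Cortical neuron small RNA was sequenced with a NEBNext small RNA kit after TRIzol extraction and DNase treatment, per the labels' protocols. The build was mm10, per the submitters' processing notes; the aligner, counter and miRNA release are not given in the sources used here. The authors deposited 6 tables, 1 for each pair of groups, of a score that is not log2 CPM (values reach 35.84 to 37.33). From its values, this deposited score was worked out to be reads times a library factor, raised to a power of 0.1064 to 0.1177, with the extremes of each group of 5 pulled 64% towards their neighbour. Undoing this gave whole reads (within 0.05) for 100% of values, alike across tables (59070 comparisons, 0 differences). CPM uses the authors' library factors. limma 3.58.1 (R 4.3.3; trend, two-sided) was fitted to log2(CPM + 0.5) of all features, which understates changes of rare strands, and to log2((5p + 0.5)/(3p + 0.5)) of 261 arm pairs whose summed arms had a mean log2 CPM of at least 3, with Benjamini-Hochberg adjustment and a threshold of 0.05. Each fit used the 10 libraries of its groups, and the interaction all 20. Ratios of single strands had exact permutation tests. No replicate pair matched within sampling noise (lowest chi-square per degree of freedom 16.5). On simulated data for wild-type OGD against normoxia, the level fit recovered 88% of features changed 2-fold and 39.8% changed 1.5-fold (at least 1332 features, 200 changed), and the arm ratio fit 52.8% of 60 pairs changed 2-fold among 261. Of the calls, 4.98%, 7.35% and 5.77% were false, in that order. The simulated replicates had a fixed spread that was not estimated from these data. Changed features were drawn above a minimum normoxic level, and miR-7b-3p, at 2.57 CPM, lay below it. Named features are the 5 strands, the miR-671 arms, miR-210-3p and the 3 nearest features of each guide, beside miR-375-3p from the cell type markers. The strands, lists and tests were chosen with earlier results of these data known. Alternatives were other scalings, pseudocounts, filters, thinning, limma voom, the replicate block and leaving out each library; total-read scaling and a fit without trend were added after seeing the data.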

Additional observations from a re-analysis of the deposited data

Results flagged for a closer look

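In 50 groups of 5 values checked, 4 had 1 library far from the others by Dixon's test, which by chance flags about 1 group in 20. On the first principal component wild-type normoxic replicate 5 scored -0.88, against -14.46 to -13.09 for the rest of its group, nearer to the OGD libraries. For miR-210-3p, wild-type OGD replicate 5 stood at 47.2 CPM against 111 to 128 CPM, and knockout normoxic replicate 3 at 47.7 CPM against 15.9 to 24.1 CPM. For miR-671-5p, wild-type normoxic replicate 4 stood at 8.88 CPM against 6.25 to 6.69 CPM. No group of a miR-7 strand, or of a ratio of miR-7 strands with more than 3 reads in all 5 libraries, had a library apart by this test.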

How the results depend on the processing

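The scaling set the sign of some OGD differences. Centred libraries turned miR-7a-1-3p to -0.303 in wild type, -0.377 in knockout and 0.0538 between genotypes after OGD, and miR-7b-5p in knockout to -0.454; quantile normalization gave -0.299, -0.332 and 0.0777 for the first 3. Centring called 4 of 5 strands in knockout. Thinning left 1 strand called in each genotype, as did the filter on low levels in wild type, where 223 features were then called. limma voom called 693 and 784 features after OGD in wild type and knockout. On the values as deposited 33 and 72 features and 1 strand each were called between genotypes in normoxia and after OGD, and all 20 libraries in one fit called 4 after OGD. Thinning left 66 arm ratios called in knockout OGD and 2 between genotypes after OGD.

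The wild-type OGD rise of the miR-7a arm ratio was 0.527 thinned, 0.591 with all arm pairs and 0.383 against miR-7a-1-3p, none past the threshold. Near-zero values changed sign: the interaction of miR-7a-2-3p to 0.069 (centred), 0.0139 (quantile) and 0.00926 (voom), that of miR-7b-3p to -0.0873 (thinned), that of the miR-7b arm ratio to 0.224 (pseudocount 2 CPM) and 0.308 (thinned), and the passenger ratio between genotypes in normoxia to 0.0892 (thinned).

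Replicate numbers were not used as pairs in the main fits. Same-number correlations ran from -0.38 to 0.67 and were not all over 0.1 in any comparison. The numbers that correlated best with their own were 4 of 5 for OGD in wild type and 3 in knockout. They were 2 between genotypes in normoxia and 1 after OGD. Pairing in the OGD comparisons was therefore not shown to be absent. The replicate block took the SE of miR-7a-5p after OGD from 0.12 to 0.07 in wild type and from 0.14 to 0.08 in knockout. With the replicate block the miR-7b arm ratio in wild type passed (1.26, adjusted p 0.0353), as did miR-7a-2-3p after OGD in knockout (-0.321, adjusted p 0.0388). The guide ratio changes of -0.822 and -0.814 could not pass in an exact sign-flip test on replicate blocks (adjusted p 0.125; smallest possible p 0.0625). With the replicate block and centring, 4 and 5 strands were called after OGD in wild type and knockout, with miR-7a-1-3p at -0.303, -0.377 and 0.0538, miR-7b-5p in knockout at -0.454 and the interaction of miR-7a-2-3p at 0.069.

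Leaving out each library in turn gave 1 to 3 strands called after OGD in wild type, a miR-7a arm ratio rise of 0.498 to 0.692 there and a miR-7b arm ratio difference of 0.939 to 1.61. The passenger ratio difference after OGD ran from 0.465 to 0.704 in wild type and 0.365 to 0.567 in knockout. After OGD, the genotype comparison called 0 or 1 strand and 0 to 22 features. The interaction called 0 or 1 feature and 0 or 1 arm ratio. Values near 0 took both signs: miR-7b-5p after OGD in knockout (-0.0214 to 0.125), miR-7a-1-3p between genotypes after OGD (-0.0922 to 0.0195), the passenger ratio between genotypes in normoxia (-0.0516 to 0.0613) and the interactions of miR-7a-2-3p (-0.0839 to 0.12), miR-7b-3p (-0.0383 to 0.543) and the miR-7b arm ratio (-0.364 to 0.307). Of 500 such differences, 452 kept their direction and side of the threshold, and 170 of 180 counts of calls stayed within 1.5 times. The cause of each of these changes was not tested, beyond the smaller number of reads, features or libraries an alternative leaves.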
